A study of Mus musculus with 48 samples.

Results

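The 238 genes described here are the mouse genes whose symbol is Zfp followed by a number, whose raw count averaged at least 200 over the 48 RNA-seq libraries, and which were not among 11 such genes left out by name. The count tables list 47480 symbols, of which 343 are numbered Zfp genes, and 249 of these reached an average of 200. Of the other 94, 7 had no count in any library. Zfp36, which encodes an mRNA decay factor and is not a member of the DNA-binding zinc finger family, was left out, as were 10 genes (Zfp866, Zfp760, Zfp60, Zfp87, Zfp235, Zfp626, Zfp658, Zfp113, Zfp933 and Zfp26) that fell strongly after stretching. The members were therefore chosen by their average count and by the removal of those strong fallers. The stretch values given below are a description of the genes that remained, and nothing is concluded from how many of them were called. Just inside the limit on counts lay Zfp940, Zfp82 and Zfp688, with mean counts of 213.0, 206.0 and 202.8, and just outside it lay Zfp709, Zfp128 and Zfp97, with 198.5, 197.8 and 193.0.

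The libraries came from C2C12 cells, an immortalised mouse myoblast line that fuses into myotubes when serum is lowered. Myoblasts and differentiated cells were grown on flexible collagen-coated plates and were either put through cyclic, equibiaxial stretch or kept on the same plates without it, and were collected after 1 h, after 3 h or after 6 h. Each of the 12 groups (2 stages, 3 times, stretched or non-stretched) held 4 libraries, all from 1 cell line. By the study's account, myoblast libraries came from 2 independent experiments and differentiated ones from 3. In the sample titles, however, only 1 differentiated library, stretched replicate 4 at 1 h, carries the code B17. All other differentiated libraries carry B25 or B28, so by these codes the other differentiated groups came from 2 experiments. Libraries of a group therefore share experiments, and the main tests held no term for the experiment. The labels give the molecule as nuclear RNA, while the study's methods describe a column extraction from washed cells with no isolation of nuclei, so whether the values stand for nuclear or whole-cell RNA is not settled here. No genetic change or drug was applied in any group, and muscle in an animal was not examined. The libraries held 48447318 to 77080730 counts, of which the members took 0.568% to 0.738%. Myog, the transcription factor of terminal myogenic differentiation, was at 0.394 to 3.30 CPM (counts scaled to a common library size) in myoblast libraries and at 710 to 943 CPM in differentiated ones. Of 10 markers of leukocytes, endothelium, epithelium, adipocytes and glia, the highest value in any library was 1.38 CPM, for Cd68, and Ptprc, Pecam1, Epcam, Adipoq, Plin1 and Sox10 each had libraries at 0.

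Most numbered Zfp genes encode proteins with a row of C2H2 zinc fingers, small folds held by a zinc ion that each contact a few bases of DNA. Many also carry a KRAB box near the amino terminus, which binds the corepressor Trim28, and Trim28 brings in the histone methyltransferase Setdb1 and the HP1 proteins (Cbx1, Cbx3, Cbx5) to silence chromatin. KRAB zinc finger proteins are best known for silencing retroelements and protecting imprinted loci, and their genes lie in tandem clusters that grew by duplication. Other numbered Zfp proteins have no KRAB box and act as transcription factors, as RNA-binding proteins or in ribosome assembly. In myogenic cells Trim28 is known as a partner of the muscle regulator Myod1.

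Of the members, 237 were matched to a protein-coding gene of GENCODE vM21 on mm10, and Zfp607 was not. A KRAB box was found in 117 proteins and not in 120. The finger pattern, a pair of cysteines 2 residues apart followed by a pair of histidines, occurred a median of 12 times in proteins with a KRAB box and 7 times in those without. It occurred at most 33 times, and 11 proteins lacked it, although this pattern misses fingers with other spacing. Chromosome 7 held 57 members and chromosome 17 held 33, while 99 members had no other numbered Zfp gene within 500000 bases.

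RefSeq start windows on GRCm38.p6, from 250 bases before to 50 bases after each gene's start, were found for 192 members. The windows of 3 genes that mark the main patterns of the data are shown 5′ to 3′. Zfp329 had the largest fall of any member after 1 h in myoblasts, Zfp563 fell at 1 h and rose at 6 h, and Zfp324, which lies in the same run of Zfp genes as Zfp329, had the largest rise of any member. Capitals mark matches, on either strand, to 7 motifs that were searched. These were the CCAAT box, the TATA motif TATAAA, the GC box GGGCGG, the ETS motif CCGGAAG, the CRE TGACGTCA, the AP-1 motif TGACTCA and the NRF1 palindrome, none of which contains another.
Zfp329, chr7:12818811-12819110, minus strand: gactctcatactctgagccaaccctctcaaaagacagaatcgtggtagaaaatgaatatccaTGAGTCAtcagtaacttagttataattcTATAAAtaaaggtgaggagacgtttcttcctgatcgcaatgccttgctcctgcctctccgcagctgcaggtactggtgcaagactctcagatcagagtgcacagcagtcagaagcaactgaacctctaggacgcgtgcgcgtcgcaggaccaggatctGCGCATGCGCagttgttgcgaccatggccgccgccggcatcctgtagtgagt
Zfp563, chr17:33089117-33089416, plus strand: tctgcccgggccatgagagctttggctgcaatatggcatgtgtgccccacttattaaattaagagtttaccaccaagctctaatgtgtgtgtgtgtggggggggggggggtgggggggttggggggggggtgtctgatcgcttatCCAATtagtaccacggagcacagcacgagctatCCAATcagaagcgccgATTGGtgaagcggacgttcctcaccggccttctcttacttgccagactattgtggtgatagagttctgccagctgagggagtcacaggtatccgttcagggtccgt
Zfp324, chr7:12965588-12965887, plus strand: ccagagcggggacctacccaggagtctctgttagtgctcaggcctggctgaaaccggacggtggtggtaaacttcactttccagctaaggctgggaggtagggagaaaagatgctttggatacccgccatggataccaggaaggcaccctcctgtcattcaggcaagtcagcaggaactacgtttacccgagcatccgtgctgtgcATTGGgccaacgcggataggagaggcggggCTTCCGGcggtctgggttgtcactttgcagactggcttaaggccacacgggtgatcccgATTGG

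The 3 windows held different motifs. Zfp329 had an AP-1 match, a TATAAA match and an NRF1 match, Zfp563 had 3 CCAAT matches, and Zfp324 had 2 CCAAT matches and an ETS match. A CCAAT match was in 47.9% of the 192 member windows and in 38.9% of the 9976 windows of genes tested in myoblasts at 1 h. The GC box was in 46.9% of member windows against 64.8% of tested genes, and the ETS motif in 20.3% against 18.1%. The other motifs were in 6.77% and 6.91% (TATAAA), 2.60% and 3.35% (CRE), 4.17% and 3.63% (AP-1) and 10.4% and 10.5% (NRF1). In windows of the members called lower in myoblasts at 1 h, 54.3% had CCAAT and 37.1% had the GC box, against 44.3% and 52.5% in windows of the other members. The split by KRAB box was similar, with 52.0% and 41.2% in windows of members with the box and 43.3% and 53.3% in those without. Whether the motifs go with the fall apart from the KRAB box was not tested. A match is a stretch of letters, and binding of a factor was not measured.

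The first question was how the members' RNA levels stood after 1 h of stretching, the acute response. In myoblasts 83 of the 238 members fell and 4 rose at an adjusted p under 0.05, and the median log2 fold change was -0.17, against 0.00 over all 14938 genes tested. Over all those genes, 4.24% were called lower and 1.67% were called higher. The stretched libraries lay entirely below the non-stretched ones for 117 members, where 8.3% of all genes did so, and entirely above for 10, where 5.23% did so. In bulk RNA, fewer cells of one kind and less RNA per cell cannot be told apart. At the fold limit the study used, a log2 change of at least 0.58, 13 members fell and none rose, against 0.997% and 0.254% of all genes. Without stretched replicate 10 the count of members that fell was 55, and without any other single library it was 59 to 86. Dropping non-stretched replicate 7 or stretched replicate 9 or 10 left 1 member that rose, and dropping non-stretched replicate 8 or 10 or stretched replicate 8 left 2.

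Zfp329 had the largest fall. It encodes a protein with 12 finger matches and no KRAB box and lies at chr7:12804977-12818858. The non-stretched libraries read 8.501, 7.652, 10.8 and 7.85 CPM and the stretched ones 4.50, 4.69, 4.14 and 4.35 CPM. Every stretched library was below every non-stretched one, with a log2 fold change (hereafter log2 change) of -0.98 ± 0.11 (SE, n = 4 and 4, edgeR adjusted p = 0.000347). Zfp563, a KRAB zinc finger gene on chromosome 17, read 3.62, 4.18, 4.59 and 4.17 CPM without stretching and 2.49, 2.53, 2.38 and 2.33 CPM with it. Its log2 change was -0.77 ± 0.09 (edgeR adjusted p = 0.000526), again with no overlap between the groups. Zfp763, a KRAB gene of the same chromosome 17 cluster, moved from 7.999, 7.492, 8.61 and 7.79 CPM to 5.18, 4.76, 5.19 and 4.61 CPM. Its log2 change was -0.69 ± 0.07 (edgeR adjusted p = 0.000178).

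Zfp58, Zfp599 and Zfp433 also fell. Zfp58 moved from 4.58, 5.14, 5.71 and 4.52 CPM to 3.07, 2.89, 3.15 and 2.95 CPM, a log2 change of -0.72 ± 0.09 (edgeR adjusted p = 0.000712). Zfp599 moved from 4.81, 4.73, 6.42 and 4.79 CPM to 3.33, 3.12, 3.16 and 3.00 CPM, a log2 change of -0.72 ± 0.11 (edgeR adjusted p = 0.00230). In both genes the groups did not overlap, and non-stretched replicate 9 was the highest library. Zfp433 moved from 6.67, 6.69, 7.70 and 5.89 CPM to 3.65, 4.12, 4.70 and 4.09 CPM, a log2 change of -0.70 ± 0.10 (edgeR adjusted p = 0.00154). The values of Zfp433 and Zfp58 are uncertain as single-gene values, because 87.1% and 48.0% of their 31-base stretches also occur in other genes. Reads of such stretches could have been assigned to either gene.

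The 4 members that rose in myoblasts at 1 h moved by far less, and none has a KRAB box. Zfp628 encodes a protein with 16 finger matches. It read 23.8, 24.3, 19.98 and 22.04 CPM without stretching and 28.6, 26.4, 26.96 and 28.1 CPM with it, a log2 change of 0.29 ± 0.06 (edgeR adjusted p = 0.0134). Zfp622, which takes part in the maturation of the large ribosomal subunit, read 90.4, 92.2, 82.95 and 92.55 CPM and then 98.7, 97.8, 103.9 and 106.1 CPM, a log2 change of 0.18 ± 0.04 (edgeR adjusted p = 0.0254). Zfp609 read 61.7, 64.1, 64.4 and 64.3 CPM and then 67.1, 74.4, 69.8 and 69.3 CPM, a log2 change of 0.14 ± 0.04 (edgeR adjusted p = 0.0428). For these 3 genes every stretched library was above every non-stretched one. Zfp384 had a log2 change of 0.12.

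**Figure D1:**
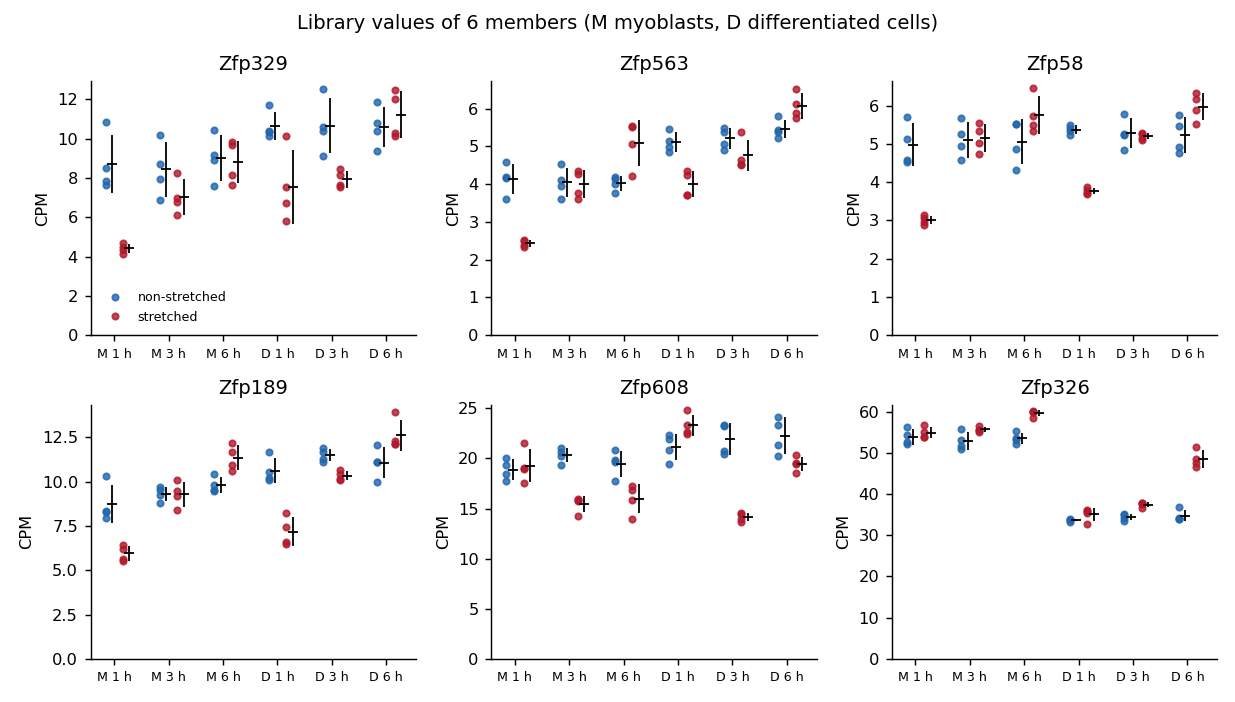
CPM (y axis, from 0) of 6 members in every library, with non-stretched libraries in blue and stretched ones in red for myoblasts (M) and differentiated cells (D) at each time, and black marks for the mean ± SD of 4 libraries. Zfp329, Zfp563, Zfp58 and Zfp189 are low in the stretched libraries at 1 h, Zfp608 is low at 3 h in both stages, and Zfp326 is high at 6 h.

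In differentiated cells at 1 h, 11 members fell and none rose, where 0.47% and 0.193% of all 15538 genes tested were called. The median log2 fold change of the members was -0.13, against 0.00 over all genes. The stretched libraries lay entirely below for 72 members and entirely above for 7, against 3.76% and 2.68% of all genes. At an unadjusted p under 0.05, 99 members were lower and 6 higher, 41.6% and 2.52%, against 5.74% and 3.18% of all genes. DESeq2 called 41 lower and 2 higher, and its share over all genes is not given here. By edgeR no member passed the fold limit of 0.58, where 0.18% of all genes were lower and 0.0901% higher. All 11 members called here were also called in myoblasts at 1 h, which is 13.3% of the 83 called there. They were Zfp189, Zfp157, Zfp58, Zfp799, Zfp790, Zfp629, Zfp217, Zfp46, Zfp84, Zfp553 and Zfp120. At 1 h, 170 members had a log2 fold change below 0 in both stages and 40 had one above 0 in both. How far the stages shared calls over all genes is not given here, so the sharing is not read as particular to the members.

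Single libraries moved the count of 11. Dropping non-stretched replicate 7, 8 or 9 left 0 calls, and dropping non-stretched replicate 10 or stretched replicate 7 or 8 left 2. Dropping stretched replicate 9 gave 28 calls. Dropping stretched replicate 4 gave 14, with 1 member that rose. That library is the only library of its experiment in this comparison. With the experiment as a term in the model, 24 members fell.

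Zfp189, a KRAB gene, had the largest log2 fold change of the 11. Its libraries read 11.7, 10.1, 10.2 and 10.5 CPM without stretching and 7.44, 6.48, 6.59 and 8.22 CPM with it, a log2 change of -0.57 ± 0.09 (edgeR adjusted p = 0.0277). Zfp157, another KRAB gene, read 13.2, 12.6, 12.5 and 12.5 CPM and then 7.72, 9.21, 9.54 and 8.84 CPM, a log2 change of -0.53 ± 0.07 (edgeR adjusted p = 0.0162). Zfp58 read 5.51, 5.34, 5.23 and 5.42 CPM and then 3.68, 3.88, 3.73 and 3.79 CPM, a log2 change of -0.51 ± 0.07 (edgeR adjusted p = 0.0162). In each of the 3 genes the groups did not overlap.

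Zfp329 and Zfp563, with the largest falls in myoblasts, did not pass the test in differentiated cells, whereas Zfp58, next in size, did. Zfp329 read 11.7, 10.2, 10.4 and 10.4 CPM without stretching and 5.82, 7.53, 6.70 and 10.1 CPM with it, so that stretched replicate 9 stood just under the non-stretched libraries. Its log2 change was -0.50 ± 0.15 (edgeR adjusted p = 0.226). Zfp563 had a log2 change of -0.35 ± 0.09 (edgeR adjusted p = 0.136) with no overlap between the groups. Whether these effects differ between the stages was not tested.

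The KRAB box was not used to choose the members, but stretch values were, through the removal of the 10 strong fallers. The values by class describe the genes that remained. At 1 h in myoblasts the 117 members with a KRAB box had a median log2 fold change of -0.28, with 56 that fell and none that rose. The 120 members without had a median of -0.07, with 26 that fell and 4 that rose. Over all genes 4.24% fell and 1.67% rose. The summed CPM of members with a KRAB box was 1552 ± 95.8 (SD, n = 4) without stretching and 1316 ± 9.996 with it, and the libraries did not overlap (1473 to 1692 and 1309 to 1331). The summed CPM of members without was 4801 ± 65.2 and 4721 ± 76.4, with overlapping libraries (4759 to 4898 and 4647 to 4827). In differentiated cells the medians were -0.19 with a KRAB box and -0.05 without, and the summed CPM of those with a KRAB box was 1705 ± 52.2 without stretching and 1536 ± 63.0 with it.

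**Figure D2:**
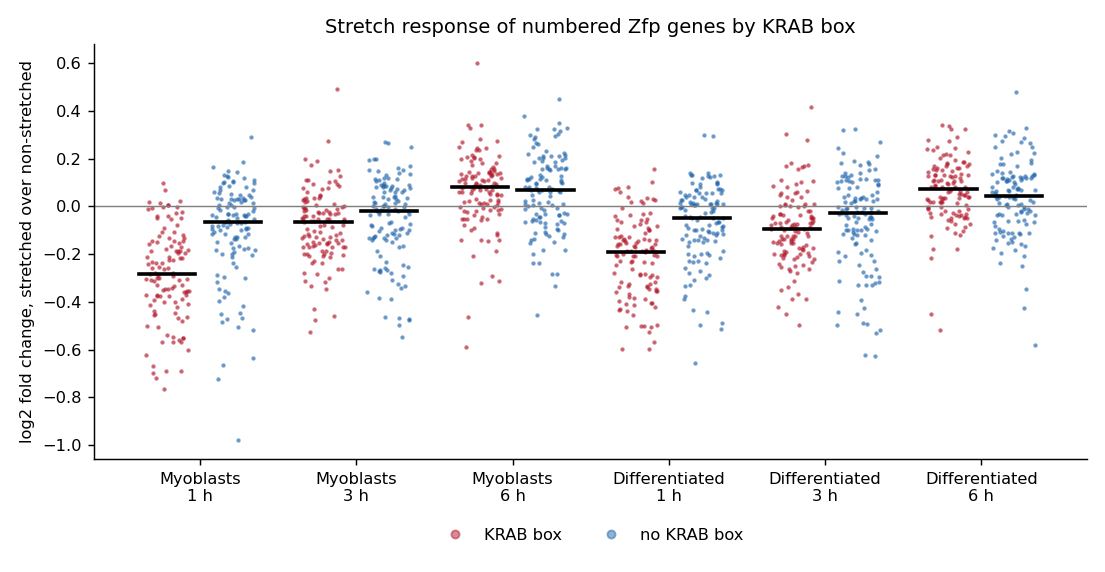
Log2 fold change of stretched over non-stretched libraries (y axis) for every member with a KRAB box (red) and without (blue) in the 6 comparisons, with the median as a black bar. At 1 h the red medians lie at -0.28 in myoblasts and -0.19 in differentiated cells, and at 6 h all medians lie between 0.04 and 0.08.

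Finger number moved with the fold change as well. In myoblasts at 1 h the median log2 fold change was -0.04 in the 51 members with 0 to 4 finger matches, -0.11 in the 62 with 5 to 9, -0.22 in the 79 with 10 to 14 and -0.35 in the 45 with 15 or more. Of these groups, 6, 17, 32 and 27 members fell, where 34.9% of all members and 4.24% of all genes did. In differentiated cells the medians were -0.01, -0.10, -0.17 and -0.26. Within the group of 15 or more, the median in myoblasts was -0.37 for the 29 members with a KRAB box and -0.17 for the 16 without. Within the group of 5 to 9, it was -0.22 for 29 with and -0.04 for 33 without.

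Level also moved with these features. The median of the mean raw counts was 583.7 for members with a KRAB box and 1461 for those without. The 60 members with the lowest mean counts had a median log2 fold change of -0.29 in myoblasts at 1 h, and the 60 with the highest had -0.05. The part of the level in the differences by KRAB box or finger number was not tested. In the 23 members with over 20% of their 31-base stretches in other genes, the median was -0.34, and in the 214 with at most 20% it was -0.14.

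**Figure D3:**
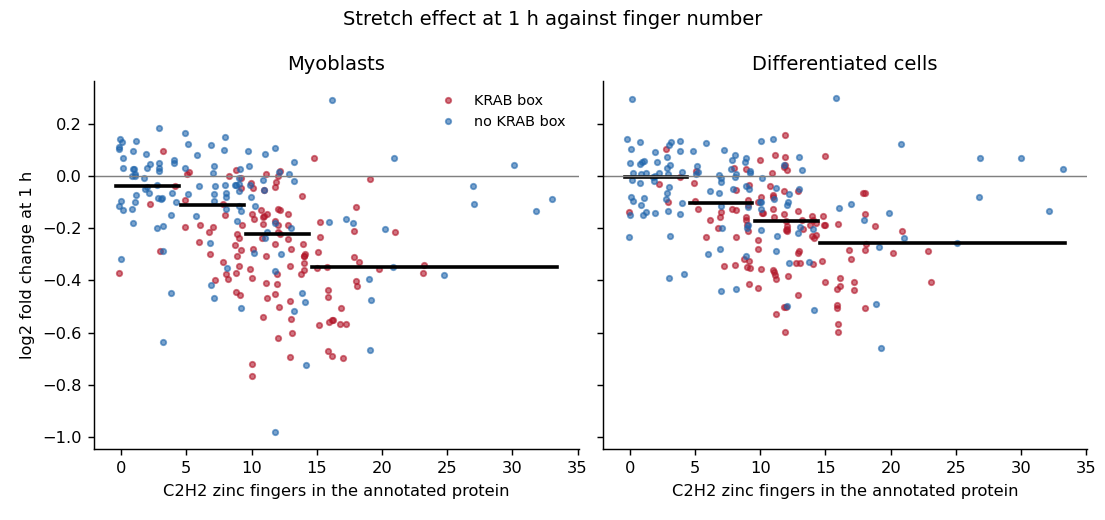
Log2 fold change at 1 h (y axis) against the number of C2H2 finger matches in the annotated protein (x axis, points shifted slightly at random) for members with a KRAB box (red) and without (blue), with black bars at the median of the members with 0 to 4, 5 to 9, 10 to 14 and 15 or more matches. The medians step down from -0.04 to -0.35 in myoblasts and from -0.01 to -0.26 in differentiated cells.

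Many members lie in tandem clusters, and 4 runs with gaps of at most 500000 bases held 10 or more members each. On chromosome 17, the run at chr17:21008903-23599487 held 17 members, with a median log2 fold change of -0.23 in myoblasts at 1 h and 6 that fell. The run at chr17:32765496-33631779 held 10 members, among them Zfp563, Zfp763, Zfp101, Zfp799, Zfp952, Zfp81 and Zfp871, and these 7 fell. Its median was -0.43, with -0.27 in differentiated cells. On chromosome 7, the run at chr7:29768552-30169750 held 13 members, with a median of -0.21 and 3 that fell (Zfp84, Zfp790 and Zfp260). The run at chr7:127233061-127885996 held 10, with a median of -0.16 and 5 that fell (Zfp553, Zfp747, Zfp764, Zfp629 and Zfp668). The 99 members with no numbered Zfp neighbour had a median of -0.07, and 23 of them fell. Over all members 34.9% fell in myoblasts at 1 h, and over all genes 4.24%. Whether any run differs from the other members was not tested.

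**Figure D4:**
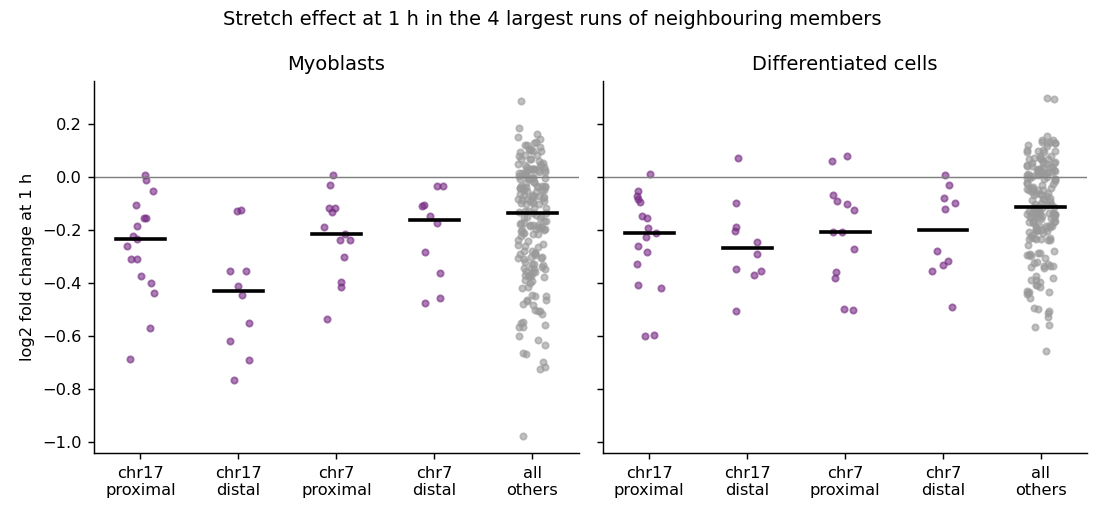
Log2 fold change at 1 h (y axis) of the members in the 4 largest runs of neighbouring members (purple; 17, 10, 13 and 10 genes) and of all other members (grey), with the median as a black bar. The distal chromosome 17 run has the lowest median in both stages, -0.43 in myoblasts and -0.27 in differentiated cells, and its genes overlap in range with those of the other runs.

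Values differed widely within runs. In the distal chromosome 17 run, Zfp563 had a log2 change of -0.77 in myoblasts at 1 h, while Zfp472 was at -0.13 and Zfp414, the member there without a KRAB box, was at -0.13. In the proximal chromosome 17 run, Zfp40 fell by 0.69 on the log2 scale and Zfp948 by 0.57, while Zfp213 was at 0.01 and Zfp51 at -0.01. In the proximal chromosome 7 run, Zfp84 fell by 0.54 on the log2 scale, while Zfp568 was at 0.01.

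After 3 h of stretching, members were called in both directions, but the share that rose was no larger than that of all genes. In myoblasts 66 fell and 29 rose, 27.7% and 12.2% of the members, where 15.8% of all genes were called lower and 16% higher. The median log2 fold change of the members was -0.05. In differentiated cells 57 fell and 25 rose, 23.9% and 10.5% of the members, where 11.4% and 10.8% of all genes were called. The median there was -0.07. The stages shared 39 members that fell, which is 59.1% of those in myoblasts and 68.4% of those in differentiated cells. They shared 17 that rose, which is 58.6% and 68.0%, and no member was called in opposite directions. The sharing of calls over all genes is not given here. At the fold limit of 0.58 no member was called in myoblasts, where 1.25% of all genes were lower and 0.459% higher. Zfp608 and Zfp395 were called lower in differentiated cells and none higher, where 0.741% and 0.89% of all genes were.

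Zfp608, related to Zfp609 and without a finger match, read 23.3, 23.4, 20.7 and 20.4 CPM in non-stretched differentiated cells at 3 h and 13.97, 14.6, 14.5 and 13.7 CPM in stretched ones. Its log2 change was -0.63 ± 0.05 (edgeR adjusted p = 9.24e-05), and it was -0.39 in myoblasts at 3 h, where it fell too. Zfp395, a transcription factor without a match to the finger pattern, read 17.8, 17.6, 18.4 and 19.7 CPM and then 11.8, 11.7, 12.4 and 11.9 CPM in differentiated cells. Its log2 change was -0.62 ± 0.05 (edgeR adjusted p = 5.23e-05), and -0.27 in myoblasts, where it fell too. Zfp239 read 4.98, 5.44, 5.32 and 5.03 CPM and then 3.48, 3.65, 3.86 and 3.34 CPM in differentiated cells, a log2 change of -0.53 ± 0.07 (edgeR adjusted p = 0.000805). None of these 3 groups of libraries overlapped.

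The largest falls in myoblasts at 3 h were in genes of low level. Zfp174, which has a SCAN domain in place of a KRAB box, read 1.76, 1.70, 2.15 and 1.91 CPM without stretching and 0.959, 1.36, 1.24 and 1.58 CPM with it, a log2 change of -0.55 ± 0.15 (edgeR adjusted p = 0.0143). Zfp661, a KRAB gene, read 3.49, 3.92, 4.06 and 4.28 CPM and then 2.72, 2.78, 2.41 and 3.00 CPM, a log2 change of -0.53 ± 0.09 (edgeR adjusted p = 0.00104). Zfp438 read 2.77, 2.84, 2.91 and 2.37 CPM and then 2.01, 2.09, 1.70 and 1.87 CPM, a log2 change of -0.50 ± 0.11 (edgeR adjusted p = 0.00324). The stretched libraries of the 3 genes were all below the non-stretched ones.

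Zfp28 and Zfp131 were among the 3 largest rises at 3 h in both stages. Zfp28, a KRAB gene on chromosome 7, read 9.82, 10.5, 10.9 and 10.6 CPM in non-stretched myoblasts and 15.4, 14.7, 14.1 and 14.3 CPM in stretched ones, a log2 change of 0.49 ± 0.05 (edgeR adjusted p = 1.34e-05). In differentiated cells it read 8.89, 9.16, 11.9 and 10.8 CPM and then 12.6, 12.3, 15.3 and 14.2 CPM, a log2 change of 0.41 ± 0.10 (edgeR adjusted p = 0.0149). In Zfp28, 21.4% of the 31-base stretches also occur in other genes. Zfp131, a BTB domain transcription factor, read 45.6, 47.6, 49.0 and 47.2 CPM in non-stretched myoblasts and 56.2, 55.3, 56.9 and 58.9 CPM in stretched ones, a log2 change of 0.27 ± 0.03 (edgeR adjusted p = 3.17e-05). In differentiated cells its log2 fold change was 0.32 ± 0.05 (edgeR adjusted p = 0.00148). Neither gene had overlapping groups in either stage.

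The remaining gene of the 3 differed by stage. In myoblasts it was Zfp777, a KRAB gene, with 25.4, 25.5, 24.3 and 26.1 CPM without stretching and 30.5, 30.5, 30.5 and 30.3 CPM with it, a log2 change of 0.27 ± 0.03 (edgeR adjusted p = 3.5e-05). In differentiated cells it was Zfp703, a transcriptional corepressor, with 51.3, 53.7, 52.8 and 51.4 CPM and then 64.3, 60.6, 66.1 and 70.6 CPM, a log2 change of 0.32 ± 0.04 (edgeR adjusted p = 0.000805). Zfp777 rose in differentiated cells at 3 h as well, with a log2 change of 0.30 ± 0.04 (edgeR adjusted p = 0.00125). Zfp703 had a log2 change of 0.07 in myoblasts at 3 h and was not called there. Whether these effects differ between the stages was not tested.

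After 6 h, the longest stretch, the median of the members was above 0. In myoblasts 20 fell and 54 rose, where 13% of all genes were called lower and 14.1% higher, and the median log2 fold change was 0.07 against 0.00 over all genes. In differentiated cells 15 fell and 44 rose, where 10.8% and 11.5% of all genes were called, and the median was 0.06. The stretched libraries lay entirely above for 55 members in myoblasts and 53 in differentiated cells, against 14.6% and 14% of all genes. At the fold limit of 0.58, 1 member fell and 1 rose in myoblasts, against 0.823% and 1.35% of all genes. In differentiated cells 1 fell and none rose, against 1.52% and 0.518%. The count that fell in myoblasts was 12 without stretched replicate 9 and 13 without non-stretched replicate 7 or 10. In differentiated cells the count that fell was 8 without non-stretched replicate 8 and 9 without stretched replicate 8. The count that rose there was 25 without non-stretched replicate 8 and 29 without stretched replicate 7.

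Of those that rose, 25 were shared by the stages, which is 46.3% of the 54 and 56.8% of the 44. Of those that fell, 9 were shared, which is 45.0% and 60.0%. Again no value for the sharing over all genes is given. Zfp219, a transcription factor without a KRAB box, was the member called in opposite directions. In myoblasts it read 24.9, 27.2, 24.8 and 25.7 CPM without stretching and 29.0, 28.1, 30.8 and 26.5 CPM with it, overlapping groups with a log2 change of 0.16 ± 0.05 (edgeR adjusted p = 0.0295). In differentiated cells it read 24.7, 26.2, 26.8 and 25.9 CPM and then 22.4, 22.7, 22.1 and 22.5 CPM, with no overlap and a log2 change of -0.21 ± 0.04 (edgeR adjusted p = 0.00374). The difference between the stages was not tested.

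Zfp324, a KRAB gene at chr7:12965838-12974236, had the largest rise of any member at any time. In myoblasts at 6 h it read 11.8, 11.97, 10.3 and 11.7 CPM without stretching and 18.6, 16.1, 17.8 and 16.7 CPM with it, a log2 change of 0.60 ± 0.06 (edgeR adjusted p = 0.000111). In differentiated cells it read 9.85, 8.84, 10.7 and 9.84 CPM and then 12.2, 12.01, 13.2 and 11.7 CPM, a log2 change of 0.32 ± 0.07 (edgeR adjusted p = 0.00632). Zfp428 read 10.8, 10.1, 10.5 and 10.2 CPM in non-stretched myoblasts and 13.7, 14.1, 14.7 and 14.5 CPM in stretched ones, a log2 change of 0.45 ± 0.05 (edgeR adjusted p = 0.000103). Zfp142, with 32 finger matches and no KRAB box, read 51.5, 51.6, 49.6 and 49.7 CPM and then 71.9, 59.9, 64.9 and 66.2 CPM, a log2 change of 0.38 ± 0.05 (edgeR adjusted p = 0.000346). In all of these the stretched libraries stood above the non-stretched ones.

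In differentiated cells at 6 h the largest rise was that of Zfp326, which encodes a component of the complex linking mRNP particles to RNA polymerase II. It read 34.0, 34.1, 34.2 and 36.8 CPM without stretching and 47.5, 46.6, 51.4 and 48.6 CPM with it, a log2 change of 0.48 ± 0.04 (edgeR adjusted p = 0.000177). In myoblasts it read 52.1, 53.1, 55.3 and 53.7 CPM and then 59.9, 58.5, 60.1 and 59.9 CPM, a log2 change of 0.16 ± 0.03 (edgeR adjusted p = 0.00256). Zfp959, a KRAB gene with 32.5% of its stretches shared with other genes, had a log2 change of 0.34 ± 0.08 (edgeR adjusted p = 0.0118). Zfp341 read 6.64, 6.23, 6.30 and 6.89 CPM and then 10.03, 8.18, 7.86 and 6.71 CPM. These groups overlapped, with a log2 change of 0.33 ± 0.11 (edgeR adjusted p = 0.0481).

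Zfp810 and Zfp580 were among the 3 largest falls at 6 h in both stages. Zfp810, a KRAB gene, read 4.24, 3.68, 4.02 and 4.01 CPM in non-stretched myoblasts and 2.50, 2.83, 2.38 and 2.90 CPM in stretched ones, a log2 change of -0.59 ± 0.09 (edgeR adjusted p = 0.00100). In differentiated cells it read 10.3, 10.8, 11.9 and 11.0 CPM and then 6.48, 8.02, 7.57 and 8.60 CPM, a log2 change of -0.52 ± 0.09 (edgeR adjusted p = 0.00279). Zfp580, which has 3 finger matches, read 3.65, 4.41, 3.96 and 3.94 CPM in non-stretched differentiated cells and 2.37, 3.02, 2.01 and 3.25 CPM in stretched ones, a log2 change of -0.58 ± 0.14 (edgeR adjusted p = 0.0156). In myoblasts its log2 fold change was -0.45 ± 0.15 (edgeR adjusted p = 0.0394), and the adjusted p was 0.102 without stretched replicate 9. Zfp867 in myoblasts and Zfp13 in differentiated cells, both KRAB genes, had log2 fold changes of -0.47 ± 0.08 (edgeR adjusted p = 0.00139) and -0.45 ± 0.09 (edgeR adjusted p = 0.00493).

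The early and late effects were then compared within each stage, as the stretch effect at 6 h minus that at 1 h. In myoblasts 124 members had a higher effect at 6 h and 8 a lower one, where 10.7% and 7.33% of all 15455 genes were called, and the median difference was 0.25 on the log2 scale. In differentiated cells the counts were 72 and 4, where 5.08% and 3.61% were called, and the median was 0.18. At the fold limit of 0.58 the higher and lower counts were 32 and 0 in myoblasts (2.28% and 0.608% of all genes) and 17 and 0 in differentiated cells (1.07% and 1.1%). The count of 8 was 4 or 5 without any 1 of 10 of the 16 libraries, and the count of 4 was 2 without non-stretched replicate 8 at 1 h or at 6 h or stretched replicate 8 at 1 h and 7 without stretched replicate 4. Members with a KRAB box had medians of 0.36 in myoblasts and 0.29 in differentiated cells, and those without had 0.14 and 0.09. Of the 83 members that fell in myoblasts at 1 h, 76 had a higher effect at 6 h. By the tests at 6 h, 20 of the 83 rose, 4 fell and 59 passed in neither direction. All 11 that fell in differentiated cells at 1 h had a higher effect at 6 h, and 3 of them rose at 6 h. Both sets were picked by a fall in the 1 h libraries, which the difference also uses. That choice alone favors a higher effect at 6 h, so nothing is concluded from these counts of the picked members.

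Zfp563 had the largest difference in myoblasts. It rose at 6 h, from 4.13, 4.20, 4.001 and 3.75 CPM to 5.54, 4.22, 5.52 and 5.05 CPM (log2 change 0.34 ± 0.09, edgeR adjusted p = 0.0192), and the difference from 1 h was 1.11 ± 0.13 (edgeR adjusted p = 1.81e-05). Zfp329 at 6 h read 10.5, 8.91, 9.16 and 7.57 CPM without stretching and 9.67, 8.15, 9.81 and 7.64 CPM with it, overlapping groups with a log2 change of -0.03 ± 0.10. Its difference from 1 h was 0.95 ± 0.16 (edgeR adjusted p = 0.000633). Zfp58 at 6 h read 4.32, 5.52, 4.88 and 5.54 CPM and then 5.33, 5.50, 6.47 and 5.74 CPM, which overlap, and its difference from 1 h was 0.92 ± 0.13 (edgeR adjusted p = 0.000147).

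In differentiated cells the largest differences were those of Zfp759, Zfp607 and Zfp189. Zfp759 read 5.95, 5.91, 5.45 and 4.65 CPM without stretching and 3.35, 4.03, 2.52 and 4.08 CPM with it at 1 h, and 5.71, 6.00, 5.11 and 6.59 CPM and then 6.69, 5.96, 7.16 and 5.88 CPM at 6 h. The difference was 0.79 ± 0.19 (edgeR adjusted p = 0.0154), with separate groups at 1 h and overlapping ones at 6 h. Zfp607 had a difference of 0.79 ± 0.21 (edgeR adjusted p = 0.0267), with overlapping groups at both times. Zfp189 read 11.1, 9.96, 11.1 and 12.1 CPM at 6 h without stretching and 12.1, 12.2, 13.9 and 12.3 CPM with it. Its difference was 0.75 ± 0.12 (edgeR adjusted p = 0.00124).

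Some members went the other way. Zfp608 was near 0 at 1 h in myoblasts, with 17.7, 18.4, 20.03 and 19.4 CPM without stretching and 17.6, 21.5, 18.9 and 19.0 CPM with it, and it fell at 6 h, from 20.8, 19.8, 19.6 and 17.7 CPM to 16.8, 17.2, 13.98 and 15.9 CPM. The difference was -0.31 ± 0.10 (edgeR adjusted p = 0.0347). In differentiated cells the difference for Zfp608 was -0.34 ± 0.08 (edgeR adjusted p = 0.0186). Zfp277 and Zfp395 in myoblasts had differences of -0.26 and -0.23, and Zfp628 and Zfp710 in differentiated cells had -0.34 and -0.32, all past the test.

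**Figure D5:**
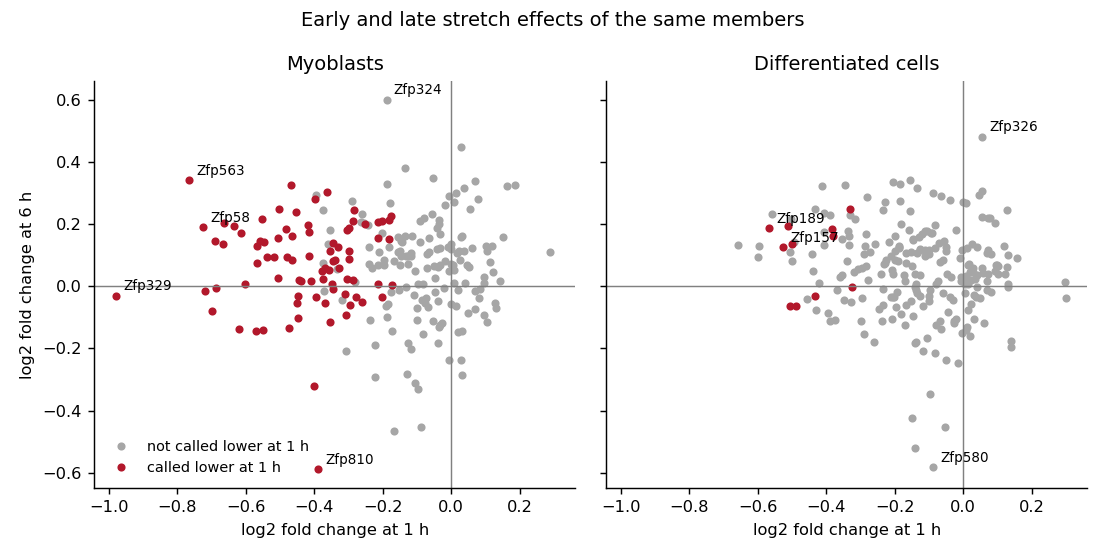
Log2 fold change at 6 h (y axis) against that at 1 h (x axis) for the 238 members in myoblasts and in differentiated cells, with the members called lower at 1 h in red (83 and 11) and the others in grey. The red points lie left of 0 by construction, and in myoblasts 23 of the 83 lie below 0 at 6 h, Zfp810 lowest.

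The non-stretched cells were compared between 6 h and 1 h, a contrast the choice of members did not use. No member passed in either stage by edgeR, where 0.381% of all genes were called higher and 0.407% lower in myoblasts and 0.0% in both directions in differentiated cells. At an unadjusted p under 0.05, 32 members were higher and 9 lower at 6 h in myoblasts, 13.4% and 3.78%, against 7.54% and 6.08% of all genes. In differentiated cells 20 were higher and 10 lower, 8.4% and 4.2%, against 5.34% and 7.03% of all genes. With the fold limit of 0.58, 0.0134% and 0.0534% of all genes were higher and lower in myoblasts. DESeq2 called 9 higher and 1 lower in myoblasts and 4 and 1 in differentiated cells, and its shares over all genes are not given here. The members' median log2 difference was 0.04 in myoblasts, with 75 of 238 below 0, and 0.01 in differentiated cells. Without non-stretched myoblast replicate 9 at 1 h, 30 members were called higher at 6 h and 3 lower. That library had a summed member CPM of 6593, against 6259 to 6290 in the other 3 of its group.

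Across the 6 stretch comparisons, 146 members fell at least once and 92 rose at least once, 43 did both and 43 did neither. The share of all genes called this often is not given, so these counts describe the members only. In each comparison at 3 h or 6 h, 10.8% to 16% of all genes were called in each direction. Zfp217, a zinc finger oncogene that works with corepressor complexes, fell in 5 comparisons, all but differentiated cells at 6 h. At 1 h it read 31.9, 32.5, 33.3 and 33.3 CPM in non-stretched myoblasts and 24.0, 26.7, 26.6 and 25.01 CPM in stretched ones, a log2 change of -0.35 ± 0.04 (edgeR adjusted p = 0.000458). In differentiated cells it read 26.2, 28.6, 27.8 and 28.2 CPM and then 20.8, 21.3, 18.1 and 22.1 CPM, a log2 change of -0.43 ± 0.06 (edgeR adjusted p = 0.0230). Zfp799, Zfp414 and Zfp608 fell in 4 comparisons each. Zfp622 rose in 5, all but differentiated cells at 1 h, and at 6 h in myoblasts it read 90.7, 86.9, 91.0 and 93.4 CPM without stretching and 110.1, 112.4, 116.9 and 113.4 CPM with it (log2 change 0.33 ± 0.03, edgeR adjusted p = 7.79e-05). Zfp142, Zfp326, Zfp384, Zfp655 and Zfp800 rose in 4 each, and Zfp655, a KRAB gene, fell in myoblasts at 1 h as well.

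Of 10 members known for roles with RNA and ribosomes, 1 rose and none fell in myoblasts at 1 h, where 1.67% of all genes rose and 4.24% fell. None was called in differentiated cells, where 0.193% and 0.47% of all genes were. At 6 h, 3 rose in myoblasts (Zfp326, Zfp622 and Zfp638), and in differentiated cells 4 rose (those 3 and Zfp207, a spindle and spliceosome protein) and 1 fell (Zfp346, which binds double-stranded RNA). At 6 h, 14.1% of all genes rose in myoblasts, and 11.5% rose and 10.8% fell in differentiated cells. Zfp638, an RNA-binding splicing factor, fell at 3 h and rose at 6 h in both stages, with log2 fold changes of -0.17 and 0.19 in myoblasts and -0.15 and 0.27 in differentiated cells. Zfp598, the sensor of collided ribosomes, and Zfp330 passed in no comparison. Zfp106, an RNA-binding protein needed for neuromuscular maintenance, did not either, with 378, 397, 394 and 388 CPM in non-stretched myoblasts at 1 h and 400, 431, 406 and 412 CPM in stretched ones.

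Of 25 DNA-binding and chromatin regulators without a KRAB box, 3 fell in myoblasts at 1 h (Zfp217, Zfp281 and Zfp367) and 2 rose (Zfp384 and Zfp609), against 4.24% and 1.67% of all genes. Zfp281, a regulator of pluripotency, had a log2 change of -0.29. At 3 h, 5 fell and 6 rose in myoblasts, where 15.8% and 16% of all genes did. In differentiated cells 6 fell and 7 rose, where 11.4% and 10.8% of all genes did. Zfp462 fell in both stages (-0.29 and -0.33), and Zfp451, a SUMO ligase, rose in both (0.20 and 0.25). At 6 h, 7 fell and 7 rose in myoblasts, against 13% and 14.1% of all genes, and 4 fell and 3 rose in differentiated cells, against 10.8% and 11.5%.

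Of 5 members known for imprinting or retroelement silencing, all KRAB genes, 3 fell in myoblasts at 1 h, where 4.24% of all genes and 56 of the 117 members with a KRAB box fell. Zfp57, which protects methylated imprints, had a log2 change of -0.29, and Zfp809, which silences retroviral DNA, had -0.30. Zfp445, a second guardian of imprints, read 34.6, 33.4, 38.8 and 34.0 CPM without stretching and 29.1, 31.5, 29.9 and 30.6 CPM with it, with no overlap and a log2 change of -0.21 ± 0.05 (edgeR adjusted p = 0.0254). Zfp932 read 11.6, 10.3, 14.1 and 10.3 CPM and then 9.76, 10.9, 9.95 and 10.3 CPM, which overlap. Zfp568, a repressor of a placental Igf2 transcript, was at 0.01 in myoblasts and rose in differentiated cells at 3 h, with a log2 change of 0.17.

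The partners through which KRAB proteins silence chromatin are not members, and 17 of them were followed beside the members. In myoblasts at 1 h, Cbx1 and Cbx5 fell, with log2 fold changes of -0.17 and -0.15, and the other 15 were not called, where 4.24% of all genes fell and 1.67% rose. None was called in differentiated cells at 1 h. At 3 h, 4 fell and 1 rose in myoblasts, where 15.8% and 16% of all genes did, and 1 fell and 1 rose in differentiated cells, where 11.4% and 10.8% did. At 6 h in myoblasts 2 fell, Atf7ip (-0.39), a cofactor of Setdb1, and Uhrf1 (-0.11), and 1 rose, Mphosph8 (0.19), a subunit of the HUSH silencing complex, against 13% and 14.1% of all genes. In differentiated cells at 6 h Atf7ip fell (-0.32), and Mphosph8 (0.21), Morc2a (0.16), Trim28 (0.13) and Setdb1 (0.11) rose, against 10.8% and 11.5% of all genes. Trim28 had a log2 change of 0.06 in myoblasts at 6 h and was not called. Trim28 averaged 363.7 CPM in non-stretched myoblasts and 184.2 CPM in non-stretched differentiated cells, on scales set separately for the stages.

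The stages were set side by side in the non-stretched libraries, 12 for each stage, with no test. CPM was scaled within each stage's own table, so that levels set across stages carry that limit. All differentiated libraries lay above all myoblast ones for 66 members, 27.7% of the 238 against 31.1% of all genes, and all lay below for 70, 29.4% against 34.9%. The ratio of the means was over 2 for 15 members and under 0.5 for 10. Zfp521, a cofactor of Ebf1, ranged from 3.20 to 4.23 CPM in myoblasts (median 3.504) and from 13.3 to 16.5 CPM in differentiated cells (median 14.7), a ratio of 4.11. Zfp568 ranged from 45.0 to 53.5 CPM and from 166.3 to 202.3 CPM, a ratio of 3.75, with Zfp174, Zfp651 and Zfp579 next at 3.72, 3.56 and 2.86. In the other direction Zfp961, Zfp101, Zfp703, Zfp850 and Zfp367 had differentiated levels at 0.289, 0.301, 0.319, 0.359 and 0.380 of their myoblast levels.

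The most highly counted member was Zfp106, with a mean of 40236 counts over the 48 libraries (19298 to 70904). Zfp91, Zfp706, Zfp207 and Zfp664 followed, with mean counts of 14400, 11548, 11517 and 7762. Per kilobase of exon, Zfp106 was at 38.2 CPM in non-stretched myoblasts and 86.9 CPM in differentiated cells, and Zfp91, a ubiquitin ligase, at 21.5 and 24.6 CPM. On the same scale Zfp703 and Zfp706 were at 48.1 and 47.1 CPM in myoblasts, above Zfp106 there.

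The 10 genes left out for their fall are given for comparison only, since their fall chose them. All 10 were called lower at 1 h in both stages, with median log2 fold changes of -0.86 in myoblasts and -0.70 in differentiated cells. Their medians at 6 h were 0.06 and 0.08, close to the 0.07 and 0.06 of the members.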

How the data were processed

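The authors prepared stranded mRNA libraries, sequenced them in paired ends, aligned reads to mm10 with STAR and quantified genes with Salmon. The deposited tables, one per stage, hold whole-number counts per gene, not normalized. Columns were mapped to samples by title. One column names experiment B31 where the sample title has B231, and these were taken as the same.

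Each comparison was fitted on its own libraries (8 for a stretch comparison, 16 for the difference between 6 h and 1 h) with edgeR 4.0.16 (R 4.3.3) after filterByExpr and TMM scaling, by the quasi-likelihood test with Benjamini-Hochberg adjustment over all genes tested. "Fell" and "rose" mean an adjusted p under 0.05. CPM values use TMM library sizes of the stage's 24 libraries. DESeq2 1.42.0 and other settings were alternatives. The tests were checked on simulated data. All 238 members passed the filter in every comparison. P-values measure the spread between libraries, some of which share an experiment.

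KRAB boxes were found in translated GENCODE vM21 proteins by a 37-residue matrix built from 92 strict matches, at 15 bits or more. The members, gene lists and alternatives were chosen with earlier results of these data known. The text names members by size of change, by number of comparisons, by level and by role list. Zfp423 and Zfp708 of the role lists were not members. The lowest count of a member in any library was 55, which limits the precision of the lowest members.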

Additional observations from a re-analysis of the deposited data

Results flagged for a closer look

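Within groups of 4 libraries, 1 library stood apart from the other 3 by Dixon's criterion in 13 of 158 groups of values examined. Chance flags about 1 in 20 such groups. In non-stretched myoblasts at 1 h, replicate 9 read 6.42 CPM for Zfp599 (others 4.73 to 4.81) and 6593 CPM summed over all members (others 6259 to 6290), and replicate 7 read 61.7 CPM for Zfp609 (others 64.1 to 64.4). In stretched myoblasts, replicate 8 at 1 h summed to 1331 CPM over members with a KRAB box (others 1309 to 1312), replicate 10 at 3 h read 30.3 CPM for Zfp777, replicate 9 at 3 h summed to 6365 CPM over all members (others 6487 to 6511), and replicate 8 at 6 h read 58.5 CPM for Zfp326. In non-stretched myoblasts at 6 h, replicate 9 read 10.3 CPM for Zfp324. In differentiated cells, non-stretched replicate 7 at 1 h read 13.2 CPM for Zfp157 and 11.7 CPM for Zfp329, non-stretched replicate 10 at 6 h read 36.8 CPM for Zfp326, stretched replicate 9 at 6 h read 13.9 CPM for Zfp189, and stretched replicate 8 at 1 h summed to 6290 CPM over all members (others 6540 to 6558).

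The stretch effect differed between 6 h and 1 h, by the test of the difference itself, for the members named for it. In myoblasts the differences on the log2 scale were 1.11 for Zfp563, 0.95 for Zfp329, 0.92 for Zfp58, -0.23 for Zfp395, -0.26 for Zfp277 and -0.31 for Zfp608. In differentiated cells they were 0.79 for Zfp759, 0.79 for Zfp607, 0.75 for Zfp189, -0.32 for Zfp710, -0.34 for Zfp628 and -0.34 for Zfp608.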

How the results depend on the processing

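Among the 229 gene and comparison pairs examined, none changed sign under any alternative. Of their 3640 values, 3085 kept their side of the threshold and 555 no longer passed, 477 of these with 1 library left out. Values in the text outside these pairs are not covered by this count. In the order myoblasts 1 h, 3 h, 6 h and differentiated cells 1 h, 3 h, 6 h, the fold limit of 0.58 left 13, 0, 1, 0, 2 and 1 members that fell and 0, 0, 1, 0, 0 and 0 that rose, and 32 and 17 with a higher and 0 and 0 with a lower effect at 6 h, since fewer changes reach it. Members with a mean count of 500 or more gave 54, 43 and 31 that fell in myoblasts at 1 h and 3 h and in differentiated cells at 3 h, since 167 members remain. For differentiated cells at 1 h, the count that fell was 41 with DESeq2, 64 with all 24 libraries in a model, 24 with the experiment as a covariate, 17 without a filter and 21 with the 10 genes left out by name. The count that rose there was 2, 2 and 1 with the first 3 of these. In myoblasts at 1 h, 8 rose with all 24 libraries in a model. With the experiment as a covariate, 10 members had a lower effect at 6 h in differentiated cells. Members higher at 6 h in non-stretched cells numbered 9 with DESeq2, 1 without a filter, 2 with the experiment as a covariate and 1 with all 24 libraries in myoblasts, and 4, 1 and 2 with the first 3 in differentiated cells, and DESeq2 called 1 lower in each stage. The cause of these moves was not tested. The settings on shared stretches and on the 10 genes were chosen after seeing the data.

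With 1 library left out, members that fell in the same order numbered 55 to 86, 45 to 65, 12 to 18, 0 to 28, 40 to 53 and 8 to 13, and those that rose 1 to 5, 22 to 27, 36 to 61, 0 to 1, 18 to 23 and 25 to 41. Higher effects at 6 h numbered 107 to 127 and 49 to 83, lower ones 4 to 9 and 2 to 7. In non-stretched cells 0 to 30 and 0 to 1 were higher and 0 to 3 and 0 to 0 lower.

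The study stated no pairing by replicate number. Deviations from the group mean correlated at -0.044 to 0.153 between same-numbered stretched and non-stretched libraries. With the best other non-stretched library they correlated at -0.029 to 0.219. The same-numbered library was the higher of the pair for some replicates and the lower for others, so these values do not settle whether libraries were paired. With the replicate block, 2 members rose in myoblasts at 1 h, 5 were higher and 1 lower at 6 h in non-stretched myoblasts, and 9 had a lower effect at 6 h in differentiated cells. Other counts of calls with the block stayed within 1.5 times.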
